A study of Saccharomyces cerevisiae with 8 samples.

Results

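The genes described here are 41 yeast chaperone genes of the cytosol and mitochondria, among them the 8 subunits of the cytosolic chaperonin CCT, together with HSF1, which encodes the transcription factor that drives many of them. They were taken by name from a list of chaperones, cochaperones and Hsf1, and the rule itself uses no measured value. The list was, however, chosen with earlier results of these data known. All 41 were among the 5545 genes of the deposited count table and all 41 were among the 5488 genes that passed the filter on low counts. Their levels were compared between cells of Saccharomyces cerevisiae grown with 10 µM and with 0 µM added spermidine, a polyamine. All samples came from a single haploid strain of mating type a with the alleles ura3-52 and leu2, that carries LEU2 in place of SPE1 and of SPE2 (the labels spell the first deletion spel D::LEU2). SPE1 encodes ornithine decarboxylase and SPE2 encodes S-adenosylmethionine decarboxylase, so this strain depends on spermidine from the medium, and the 0 µM group is the same mutant without added spermidine, not a wild type. Cultures started at an optical density of 0.025 in SD medium and were taken at 0.6 to 0.7, after growth at 30 °C. In each group ribosome footprints, the mRNA stretches of 17 to 34 nucleotides that ribosomes protect from RNase I, and fragments of total RNA were sequenced in 2 libraries each, 8 libraries in all, numbered 1 and 2 by the replicate in their titles and given in that order. The study addressed how polyamine supply changes translation.

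Chaperones bind unfolded or partly folded proteins and let them fold or hold them in a soluble state. Hsp70 proteins work with J proteins, which deliver clients and start ATP hydrolysis, and with nucleotide exchange factors, which release the clients again, while Hsp90 acts later on a narrower set of clients with the help of its own cochaperones. The ring-shaped CCT complex folds actin and tubulin, a mitochondrial ring built from Hsp60 with its Hsp10 lid folds imported proteins, and a further set of chaperones sits on the ribosome and meets chains as they emerge. In yeast, Hsf1 keeps many of these genes active during normal growth and raises them in heat.

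Gene counts summed to 3324344 and 4272944 reads in the footprint libraries at 10 µM and to 5038682 and 7089928 at 0 µM, and to 1786419 and 1925498 reads in the RNA libraries at 10 µM and to 2525135 and 2884632 at 0 µM. The smallest count of any of the 41 genes in a library was 11 reads. SPE1 had 4 to 15 and SPE2 3 to 62 reads per library. CPM are the gene counts scaled to a common total, after a composition factor for each library that was estimated over all 8 libraries. The a-cell genes MFA1, MFA2, STE2 and BAR1 lay between 72.5 and 571 CPM in every library. The alpha-cell genes MF(ALPHA)1 and STE3 lay between 0.604 and 12.5 CPM, as the labelled mating type has it. Whether the replicates were separate cultures is not stated in the labels, so the p-values speak of the spread among these samples only, and that spread may be technical. CPM values are relative to the composition-adjusted gene counts of a library, so a change of all mRNA together is not seen. In a bulk culture fewer cells with a transcript and less transcript per cell cannot be told apart.

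Spermidine moved the chaperone genes in both directions. In footprints 12 of the 41 genes were higher and 7 were lower at 10 µM (quasi-likelihood test of edgeR, with p adjusted over all tested genes by Benjamini and Hochberg and called below 0.05), and 22 were not called. Of all tested genes 38.5% were called, 18.7% higher and 19.8% lower. The largest rises were those of the small heat shock protein gene HSP26, the CCT subunit gene TCP1, the Hsp70 gene SSA1 and the mitochondrial chaperonin gene HSP60. The largest falls were those of the small heat shock protein gene HSP42 and the ribosome-bound Hsp70 genes SSB1 and SSB2. The median log2 change of the 41 genes was 0.00, with a range of -0.85 to 0.79, and the median over all tested genes was -0.02. These counts depended on single libraries. Fewer of the 41 genes were called higher without footprint library 1 of 0 µM or either footprint library of 10 µM. Fewer were called lower without footprint library 2 of 0 µM or either footprint library of 10 µM. The calls over all genes became fewer whichever footprint library was left out.

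In RNA 4 of the 41 genes were higher and 9 lower at 10 µM, where 21.9% of all tested genes were called, 8.45% higher and 13.5% lower. SSA1, the Hsp110 gene SSE2, the Hsp90 gene HSP82 and TCP1 were higher, and SSA2, SIS1, AHA1, HSP42, HSP12, SSB1, SSB2, ZUO1 and CCT4 were lower. The median log2 change in RNA was -0.17, with a range of -0.96 to 0.59, against 0.00 over all tested genes. The count of higher genes was the less stable figure: it was 1 without either RNA library of 10 µM and 2 without RNA library 2 of 0 µM or with each assay fitted alone. Without RNA replicate 1 or library 2 of 10 µM the calls over all genes numbered 771 or 669, in place of 1203. The 41 genes together held 2.69% and 2.79% of footprint reads at 10 µM, against 2.62% and 2.79% at 0 µM, and 1.54% and 1.45% of RNA reads at 10 µM, against 1.73% and 1.65% at 0 µM. Their summed footprint share therefore overlapped between the groups, and their summed RNA share was lower in both libraries at 10 µM than in both at 0 µM.

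Both assays moved the same genes in the same direction where both were called. There were 9 genes called in both, 4 higher in both and 5 lower in both, and none in opposite directions. A further 10 were called in footprints alone and 4 in RNA alone, and 18 in neither. Of all tested genes 15.7% were called in both assays, 98.5% of these in the same direction, with 22.8% called in footprints alone and 6.23% in RNA alone. The libraries at 10 µM did not overlap those at 0 µM for 32 of the 41 genes in footprints, where this held for 72.6% of all tested genes, and for 32 in RNA, where it held for 60.2%. Across the 41 genes the footprint change and the RNA change correlated with Pearson r of 0.87, against 0.62 across all tested genes. This is a description across genes, which are not independent replicates. The 2 sets also differ in depth: a mean count of at least 100 was reached by 39 of the 41 genes and by 4066 genes of the whole table. How far depth bears on the 2 correlations was not tested.

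**Figure D1:**
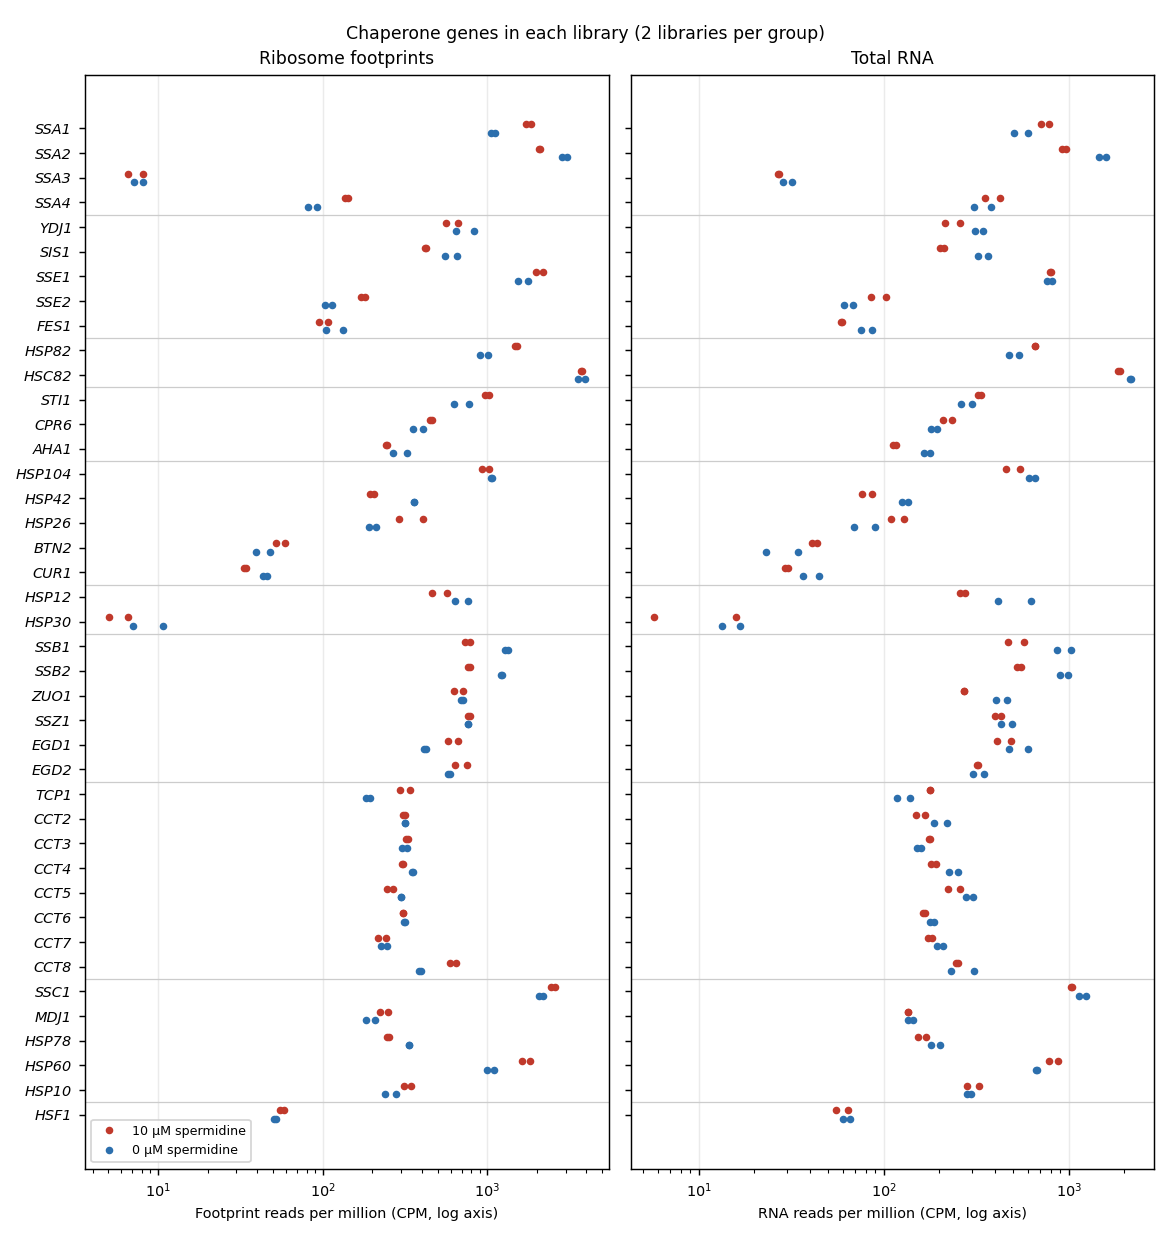
Level of each of the 41 genes in every library, as CPM on a log axis, for ribosome footprints (left) and total RNA (right); each point is 1 library, with 10 µM spermidine in red above 0 µM in blue, and grey lines divide the roles. In footprints the 10 µM points of SSA1, HSP82, HSP60, TCP1 and CCT8 lie right of their 0 µM points, and those of SSA2, HSP42, SSB1 and SSB2 lie left.

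**Figure D2:**
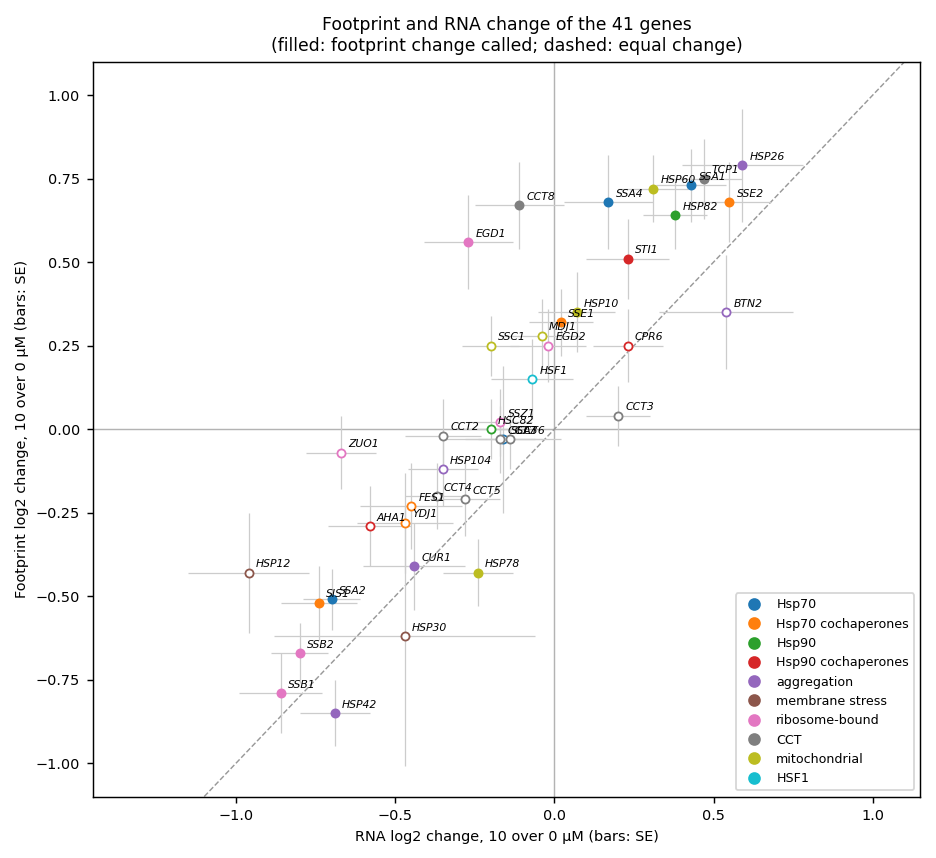
Footprint log2 change (vertical) against RNA log2 change (horizontal) of the 41 genes, 10 over 0 µM, with bars of 1 SE; colours give the role, filled points have a called footprint change, and the dashed line marks equal change. Of the 41 points 36 lie above the dashed line, among them CCT8, EGD1 and ZUO1 farthest from it.

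The cytosolic Hsp70 genes of the SSA family, which fold new and stress-damaged proteins, changed in their proportions more than in their sum. SSA1 footprints rose and SSA2 footprints fell, so that the 2 genes came close to each other at 10 µM. SSA1 (YAL005C; chromosome I, 139503 to 141431 in the R64 assembly) had 1721 and 1860 footprint CPM at 10 µM, against 1114 and 1050 at 0 µM. SSA2 (YLL024C; chromosome XII, 95566 to 97485) had 2067 and 2089 footprint CPM at 10 µM, against 2852 and 3083 at 0 µM. The groups did not overlap for either gene, with SSA1 higher and SSA2 lower in both 10 µM libraries. The log2 change was 0.73 for SSA1 (SE 0.11, adjusted p = 8.6e-04 in edgeR) and -0.51 for SSA2 (SE 0.09, adjusted p = 0.0022 in edgeR). In RNA SSA1 was also higher and SSA2 also lower, but the SSA2 fall was the larger change. SSA1 had 712 and 786 RNA CPM at 10 µM, against 601 and 508 at 0 µM, a log2 change of 0.43 (SE 0.11, adjusted p = 0.021 in edgeR). SSA2 had 972 and 918 RNA CPM at 10 µM, against 1599 and 1464 at 0 µM, a log2 change of -0.70 (SE 0.09, adjusted p = 9.9e-04 in edgeR). The SSA1 RNA call was lost without RNA library 2 of either concentration and with each assay fitted alone (largest adjusted p 0.13).

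Per coding length, the ratio of SSA1 to SSA2 footprints was 0.828 and 0.886 at 10 µM, against 0.389 and 0.339 at 0 µM. In RNA the ratio was 0.729 and 0.852 at 10 µM, against 0.374 and 0.345 at 0 µM. These ratios did not overlap between the groups in either assay. They were not tested, since an exact permutation test of 2 values against 2 (two-sided) cannot go below p = 0.333. SSA1 supplied 43.7% and 45.3% of the summed footprint density of the 4 SSA genes at 10 µM, against 27.3% and 24.8% at 0 µM. The footprint sum itself was 2043 and 2131 CPM per kb at 10 µM, against 2115 and 2196 at 0 µM. The RNA sum of the 4 genes was 1072 and 1119 CPM per kb at 10 µM, against 1320 and 1238 at 0 µM, lower without overlap. SSA1 and SSA2 are near-identical copies, and how reads that match both were treated is not given in the sources used here, so the value of each gene alone is uncertain. With both counted as 1 feature, footprints had a log2 change of -0.07 (SE 0.09, adjusted p = 0.59 in edgeR) and RNA of -0.30 (SE 0.09, adjusted p = 0.043 in edgeR).

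The stress-inducible members of the family differed from these in their footprint to RNA ratio. SSA4 had 137 and 142 footprint CPM at 10 µM, against 92.7 and 81.6 at 0 µM, with no overlap, a log2 change of 0.68 (SE 0.14, adjusted p = 0.0045 in edgeR). Its RNA stood at 353 and 424 CPM at 10 µM, against 307 and 381 at 0 µM, and the groups overlapped (log2 difference 0.17, adjusted p = 0.41 in edgeR). Per length, SSA4 had 201 RNA CPM per kb at 10 µM and 178 at 0 µM, well above its relative SSA3 with 13.8 at 10 µM and 15.5 at 0 µM. Few footprints lay on either gene for its RNA: the ratio of footprint to RNA CPM was 0.36 for SSA4 and 0.272 for SSA3 at 10 µM, against 0.253 for SSA4 and 0.251 for SSA3 at 0 µM. Among all tested genes these ratios were low, at percentile 14.1 for SSA4 and 10.7 for SSA3 at 10 µM, against percentile 8.80 for SSA4 and 8.71 for SSA3 at 0 µM. The constitutive genes stood near the other end, with a ratio of 2.39 for SSA1 and 2.20 for SSA2 at 10 µM, against 1.95 for SSA1 and 1.94 for SSA2 at 0 µM. SSA3 footprints, 6.58 and 8.07 CPM at 10 µM against 8.06 and 7.12 at 0 µM, overlapped between the groups.

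Among the partners of Hsp70, the exchange factors of the Hsp110 type rose in footprints and the J protein SIS1 fell. SIS1, which sends clients to Ssa proteins and is essential in yeast, had 426 and 419 footprint CPM at 10 µM, against 553 and 657 at 0 µM, a log2 change of -0.52 (SE 0.11, adjusted p = 0.0059 in edgeR). Its RNA was 201 and 212 CPM at 10 µM, against 323 and 365 at 0 µM, a log2 change of -0.74 (SE 0.12, adjusted p = 0.0022 in edgeR). Both SIS1 values at 10 µM lay under both at 0 µM in each assay. The footprint call was lost without footprint library 2 of 0 µM (adjusted p 0.082). YDJ1, the general J protein gene of the cytosol, had 563 and 663 footprint CPM at 10 µM, against 652 and 836 at 0 µM, which overlapped and was not called (log2 difference -0.28, SE 0.15, adjusted p = 0.16 in edgeR). Its RNA difference of -0.47 also missed the threshold (SE 0.15, adjusted p = 0.056 in edgeR). It passed in some other settings, among them each assay fitted alone and the omission of either footprint library of 0 µM (adjusted p from 0.0055 to 0.26 over all settings).

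SSE1, the main Hsp110 gene, had 1973 and 2187 footprint CPM at 10 µM, against 1552 and 1771 at 0 µM, a log2 change of 0.32 (SE 0.10, adjusted p = 0.029 in edgeR). SSE1 RNA, at 798 and 795 CPM at 10 µM and 761 and 812 at 0 µM, overlapped between the groups. SSE2, its stress-inducible copy, had 180 and 171 footprint CPM at 10 µM, against 115 and 104 at 0 µM. SSE2 was higher in both libraries at 10 µM, with a log2 change of 0.68 in footprints (SE 0.12, adjusted p = 0.0018 in edgeR) and 0.55 in RNA (SE 0.13, adjusted p = 0.018 in edgeR). The SSE1 call was lost with library totals as the scaling and without footprint library 1 of 0 µM or either footprint library of 10 µM (largest adjusted p 0.22), and the SSE2 RNA call without RNA library 2 of 0 µM or library 1 of 10 µM (largest adjusted p 0.12). SSE1 remained the major form, since SSE2 had 0.0914 and 0.0780 footprints per length for each on SSE1 at 10 µM, against 0.0741 and 0.0589 at 0 µM. FES1, a nucleotide exchange factor of another type, had log2 differences of -0.23 in footprints (adjusted p = 0.21 in edgeR) and -0.45 in RNA (adjusted p = 0.068 in edgeR) and was not called.

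In the Hsp90 pair, the heat-inducible gene rose and the constitutive gene did not pass the test. HSP82 (YPL240C; chromosome XVI, 96496 to 98625) had 1522 and 1478 footprint CPM at 10 µM, against 910 and 1012 at 0 µM, a log2 change of 0.64 (SE 0.10, adjusted p = 0.001 in edgeR). HSP82 RNA was 659 and 660 CPM at 10 µM, against 473 and 537 at 0 µM, a log2 change of 0.38 (SE 0.10, adjusted p = 0.024 in edgeR). The groups did not overlap in either assay. HSC82 (YMR186W; chromosome XIII, 632355 to 634472) had 3725 and 3777 footprint CPM at 10 µM, against 3593 and 3930 at 0 µM, with the 10 µM values inside the range of the others (log2 difference -0.00, SE 0.09). Its RNA was 1848 and 1898 CPM at 10 µM, against 2140 and 2160 at 0 µM, lower in both 10 µM libraries but not called (log2 difference -0.20, SE 0.09, adjusted p = 0.14 in edgeR). HSP82 thus had 0.406 and 0.389 footprints per length for each on HSC82 at 10 µM, against 0.252 and 0.256 at 0 µM. The HSP82 RNA call was lost without RNA library 1 of 0 µM or either RNA library of 10 µM and with each assay fitted alone (largest adjusted p 0.11). These are near-identical copies too, and with both counted as 1 feature the difference was 0.15 in footprints (SE 0.09, adjusted p = 0.20 in edgeR) and -0.07 in RNA (SE 0.09, adjusted p = 0.63 in edgeR).

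The cochaperones of Hsp90 did not move together. STI1, which bridges Hsp70 and Hsp90, had 976 and 1028 footprint CPM at 10 µM, against 629 and 781 at 0 µM, a log2 change of 0.51 (SE 0.12, adjusted p = 0.0091 in edgeR). AHA1, which speeds up the ATPase of Hsp90, had 116 and 112 RNA CPM at 10 µM, against 164 and 177 at 0 µM, a log2 change of -0.58 (SE 0.13, adjusted p = 0.010 in edgeR). STI1 was thus higher in footprints and AHA1 lower in RNA without overlap. The STI1 RNA difference of 0.23 (adjusted p = 0.22 in edgeR) and the AHA1 footprint difference of -0.29 (adjusted p = 0.076 in edgeR) were not called. CPR6, a cyclophilin bound to Hsp90, differed by 0.25 in footprints (adjusted p = 0.089 in edgeR) and 0.23 in RNA (adjusted p = 0.18 in edgeR), with no overlap in either assay and no call. The STI1 call was lost without footprint library 1 of 0 µM or library 2 of 10 µM (largest adjusted p 0.086), and the AHA1 call without RNA library 2 of 10 µM (adjusted p 0.063).

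**Figure D3:**
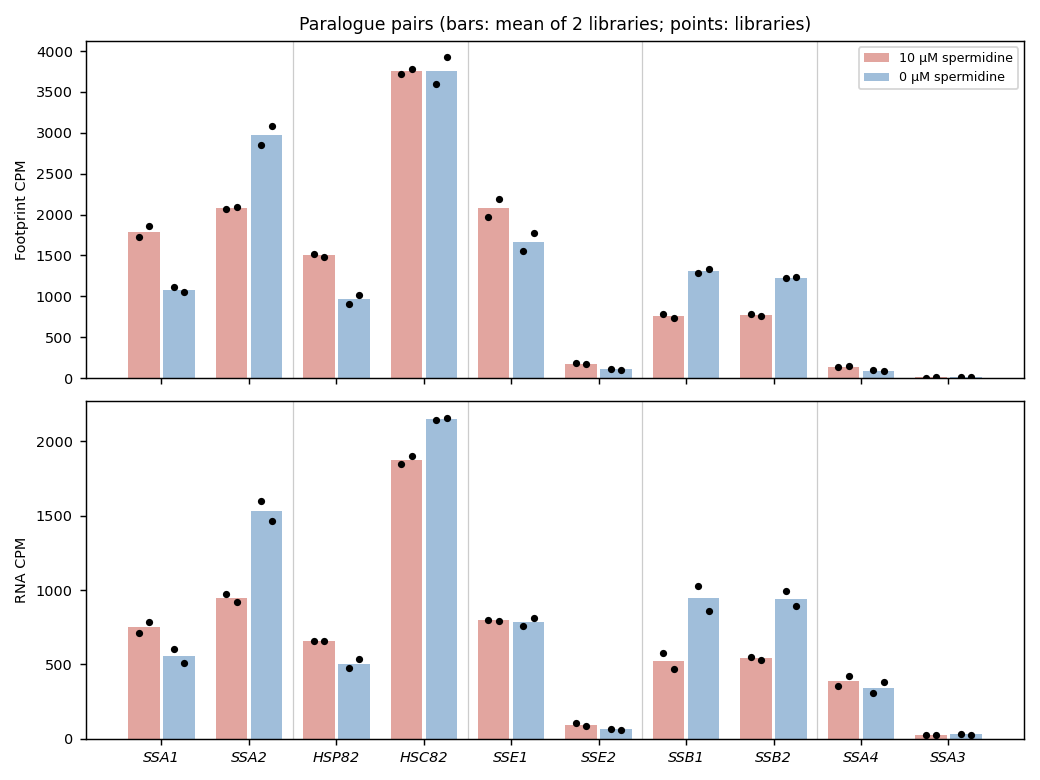
Footprint CPM (top) and RNA CPM (bottom) of duplicated Hsp70, Hsp90 and Hsp110 genes, with 10 µM spermidine in red left of 0 µM in blue; bars are means of 2 libraries and points are the libraries. SSA1 and HSP82 are higher at 10 µM, SSA2, SSB1 and SSB2 lower, and HSC82 footprints overlap between the groups.

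The small heat shock proteins, which hold unfolded proteins until other chaperones refold them, moved in opposite directions. HSP42 (YDR171W; chromosome IV, 806621 to 807748), the constitutive small heat shock protein gene that gathers aggregates in the cytosol, had 207 and 195 footprint CPM at 10 µM, against 362 and 362 at 0 µM. That is 1.80-fold lower at 10 µM, the largest footprint fall of the 41 genes, with a log2 change of -0.85 (SE 0.10, adjusted p = 2.5e-04 in edgeR). HSP42 RNA fell to 86.2 and 75.9 CPM at 10 µM, against 135 and 126 at 0 µM, a log2 change of -0.69 (SE 0.11, adjusted p = 0.0026 in edgeR). HSP26, the heat-inducible small heat shock protein gene, had 290 and 407 footprint CPM at 10 µM, against 211 and 192 at 0 µM, a log2 change of 0.79 (SE 0.17, adjusted p = 0.0054 in edgeR). This was the largest footprint rise of the 41 genes, and its value ran from 0.53 to 1.02 as single libraries were left out. HSP26 RNA was 110 and 128 CPM at 10 µM, against 89.6 and 69.3 at 0 µM, without overlap (log2 difference 0.59, SE 0.19). It missed the threshold (adjusted p = 0.056 in edgeR) but passed it under 7 of the other settings, DESeq2 and both other scalings of all libraries among them (adjusted p from 0.022 to 0.26 over all settings).

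The remaining genes of aggregate handling changed less. HSP104, the disaggregase that pulls proteins out of aggregates with Hsp70, had 1032 and 926 footprint CPM at 10 µM, against 1070 and 1050 at 0 µM, slightly lower without overlap and not called (log2 difference -0.12, SE 0.11, adjusted p = 0.43 in edgeR). Its RNA difference was -0.35 (SE 0.11, adjusted p = 0.051 in edgeR). CUR1, which with its relative Btn2 sorts misfolded proteins into deposits, had 33.2 and 34.3 footprint CPM at 10 µM, against 46.1 and 43.7 at 0 µM, a log2 change of -0.41 (SE 0.13, adjusted p = 0.035 in edgeR). That call was lost with DESeq2 and without any of the 4 footprint libraries (largest adjusted p 0.22). BTN2 pointed the other way, with differences of 0.35 in footprints (SE 0.17, adjusted p = 0.13 in edgeR) and 0.54 in RNA (SE 0.21, adjusted p = 0.096 in edgeR), neither called.

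Of the stress proteins that act at membranes, HSP12, whose small protein binds and stabilises membranes, had 275 and 257 RNA CPM at 10 µM, against 622 and 413 at 0 µM. This 1.95-fold lower level was the largest RNA change of the 41 genes (log2 -0.96, SE 0.19, adjusted p = 0.0065 in edgeR). Its replicates at 0 µM lay far apart, the value ran from -1.23 to -0.64 as single libraries were left out, and the call was lost without RNA library 2 of 10 µM (adjusted p 0.055). HSP12 footprints, 466 and 573 CPM at 10 µM and 768 and 635 at 0 µM, were lower without overlap and were not called (log2 difference -0.43, SE 0.18, adjusted p = 0.092 in edgeR). HSP30, a plasma membrane protein that holds back the proton pump Pma1, had 5.01 and 6.61 footprint CPM at 10 µM, against 7.05 and 10.7 at 0 µM. These rest on 16 and 27 reads at 10 µM and 35 and 75 at 0 µM. HSP30 footprints were lower without overlap and not called (log2 difference -0.62, SE 0.39, adjusted p = 0.25 in edgeR). Its RNA, 5.75 and 15.9 CPM at 10 µM and 13.3 and 16.7 at 0 µM, overlapped (log2 difference -0.47, SE 0.41, adjusted p = 0.46 in edgeR).

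The chaperones that sit on the ribosome did not change as a block. The Hsp70 genes SSB1 and SSB2 fell in both assays, ZUO1 fell in RNA, and EGD1 rose in footprints. SSB1 (YDL229W; chromosome IV, 44065 to 45906) had 783 and 739 footprint CPM at 10 µM, against 1290 and 1339 at 0 µM, and 574 and 468 RNA CPM at 10 µM, against 1029 and 859 at 0 µM. SSB2 (YNL209W; chromosome XIV, 252059 to 253900) had 785 and 763 footprint CPM at 10 µM, against 1220 and 1240 at 0 µM, and 553 and 527 RNA CPM at 10 µM, against 991 and 893 at 0 µM. No value at 10 µM reached a value at 0 µM for either gene. The footprint log2 change was -0.79 for SSB1 (SE 0.12, adjusted p = 0.0011 in edgeR) and -0.67 for SSB2 (SE 0.09, adjusted p = 5.6e-04 in edgeR). The RNA log2 change was -0.86 for SSB1 (SE 0.13, adjusted p = 0.0015 in edgeR) and -0.80 for SSB2 (SE 0.09, adjusted p = 5.4e-04 in edgeR). The 2 near-identical copies had close to equal footprint counts per length, with an SSB1 to SSB2 ratio of 0.998 and 0.968 at 10 µM and 1.06 and 1.08 at 0 µM. As for SSA1 and SSA2, how reads that match both were treated is not given. A ratio near equality could come from that treatment, and the value of each gene alone is uncertain. Counted as 1 feature they fell by 0.73 on the log2 scale in footprints (adjusted p = 6.4e-04 in edgeR) and by 0.83 in RNA (adjusted p = 7.2e-04 in edgeR). This sum does not depend on how shared reads were divided between the copies. Shared reads that were dropped or counted for both would still affect it.

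The partners of Ssb form the ribosome-associated complex, in which the J protein Zuo1 stimulates Ssb and the Hsp70-like Ssz1 holds Zuo1. ZUO1 RNA fell to 272 and 273 CPM at 10 µM, against 463 and 402 at 0 µM, a log2 change of -0.67 (SE 0.11, adjusted p = 0.0025 in edgeR). ZUO1 footprints did not follow, at 628 and 715 CPM at 10 µM and 696 and 713 at 0 µM, with overlapping groups (log2 difference -0.07, SE 0.11, adjusted p = 0.63 in edgeR). SSZ1 showed no called change, at 764 and 783 footprint CPM at 10 µM and 765 and 765 at 0 µM (log2 difference 0.02, SE 0.10), and -0.17 in RNA (SE 0.10, adjusted p = 0.28 in edgeR). Per length, ZUO1 had 0.789 and 0.850 times the RNA of SSZ1 at 10 µM, against 1.16 and 1.16 at 0 µM, whereas the ratio of their footprints was 1.02 and 1.13 at 10 µM, against 1.13 and 1.16 at 0 µM. The 2 genes thus held nearly equal footprints per length in every library, while their RNA ratio moved without overlap.

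The nascent polypeptide-associated complex is a dimer of the products of EGD2, the alpha subunit, and EGD1, the beta subunit. EGD1 (YPL037C; chromosome XVI, 481428 to 481901) had 578 and 665 footprint CPM at 10 µM, against 424 and 416 at 0 µM, a log2 change of 0.56 (SE 0.14, adjusted p = 0.010 in edgeR). EGD1 RNA was 490 and 411 CPM at 10 µM, against 606 and 477 at 0 µM, with overlapping groups (log2 difference -0.27, SE 0.14, adjusted p = 0.21 in edgeR). EGD1 was thus called higher in footprints and not called in RNA, and the difference between the 2 changes, given below as efficiency, was not called. The footprint call was lost without footprint library 2 of 10 µM (adjusted p 0.076). EGD2 had 640 and 758 footprint CPM at 10 µM, against 576 and 597 at 0 µM, higher without overlap and not called (log2 difference 0.25, SE 0.11, adjusted p = 0.10 in edgeR). The EGD1 to EGD2 ratio of footprints per length was 1.0 and 0.971 at 10 µM, against 0.816 and 0.772 at 0 µM. In RNA the same ratio was 1.67 and 1.43 at 10 µM, against 1.94 and 1.73 at 0 µM. The footprints of the 2 subunits were therefore closer to equal than their RNA in every library, and nearest to equal at 10 µM.

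The CCT complex holds its 8 subunits in equal numbers. In footprints TCP1, the alpha subunit, and CCT8, the theta subunit, rose, and the other 6 were not called, a share of higher genes near the 18.7% of all tested genes. TCP1 (YDR212W; chromosome IV, 887232 to 888911) had 297 and 342 footprint CPM at 10 µM, against 195 and 185 at 0 µM, a log2 change of 0.75 (SE 0.12, adjusted p = 9.4e-04 in edgeR). CCT8 (YJL008C; chromosome X, 419957 to 421663) had 597 and 651 footprint CPM at 10 µM, against 386 and 398 at 0 µM, a log2 change of 0.67 (SE 0.13, adjusted p = 0.0035 in edgeR). Both genes were above their 0 µM values in both libraries at 10 µM, and neither call was lost in any alternative that was run. The footprint differences of CCT2, CCT3, CCT4, CCT5, CCT6 and CCT7 ran from -0.21 to 0.04 on the log2 scale, with SEs of 0.09 to 0.11. A difference between the subunits was not itself tested.

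Of the 2 genes that rose in footprints, only TCP1 was also called in RNA. TCP1 RNA was 178 and 178 CPM at 10 µM, against 139 and 118 at 0 µM, a log2 change of 0.47 (SE 0.12, adjusted p = 0.023 in edgeR). CCT8 RNA was 247 and 252 CPM at 10 µM, between the 230 and 308 CPM at 0 µM (log2 difference -0.11, SE 0.14, adjusted p = 0.63 in edgeR). The CCT8 RNA value ran from -0.31 to 0.12 as single libraries were left out. TCP1 was thus called higher in both assays and CCT8 in footprints alone, and a difference between the 2 genes was not tested. CCT4 RNA was lower, at 179 and 191 CPM at 10 µM, against 253 and 226 at 0 µM (log2 change -0.37, SE 0.10, adjusted p = 0.031 in edgeR). That call was lost with DESeq2, with size factors as the scaling, with each assay fitted alone and in 7 of the 8 omissions of a single library, all but that of RNA library 2 of 0 µM (largest adjusted p 0.15). The TCP1 RNA call was lost without RNA library 2 of 0 µM or either RNA library of 10 µM and with each assay fitted alone (largest adjusted p 0.11). The other 5 subunits differed in RNA by -0.35 to 0.20 and were not called.

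Set against each other per length, the subunits were most uneven in footprints at 10 µM and least uneven in RNA at 10 µM. CCT8 had 350 and 382 footprint CPM per kb at 10 µM, against 226 and 233 at 0 µM, and supplied 22.0% and 22.8% of the summed CCT footprint density at 10 µM, against 15.5% and 15.7% at 0 µM. At 0 µM CCT4 stood close to it, at 225 and 221 CPM per kb. TCP1 had 177 and 204 CPM per kb at 10 µM, near most other subunits, against 116 and 110 at 0 µM, the lowest of the 8. The coefficient of variation of footprint density over the 8 subunits was 33.4% and 34.8% at 10 µM, against 21.4% and 21.6% at 0 µM. In RNA it was 14.9% and 16.4% at 10 µM, against 24.5% and 29.3% at 0 µM. The highest subunit had 2.65 and 2.61 times the footprint density of the lowest at 10 µM, against 1.95 and 2.12 times at 0 µM. These spreads did not overlap between the groups and, like the ratios of the SSA genes, were not tested. The summed CCT footprint density was 1586 and 1673 CPM per kb at 10 µM, against 1465 and 1483 at 0 µM, and the summed RNA density was 903 and 957 at 10 µM, against 1033 and 995 at 0 µM.

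**Figure D4:**
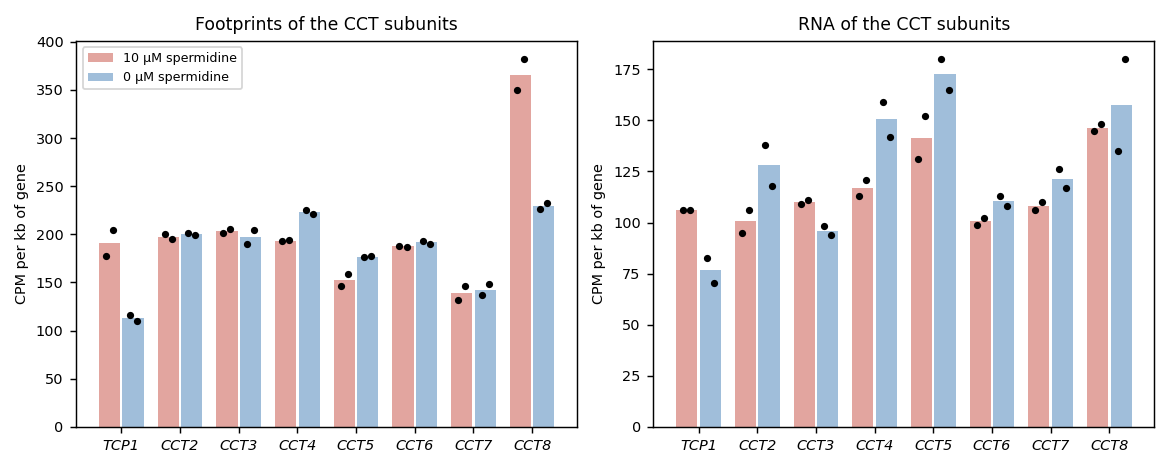
Footprint density (left) and RNA density (right) of the 8 CCT subunit genes in CPM per kb of coding length, with 10 µM spermidine in red left of 0 µM in blue; bars are means of 2 libraries and points are the libraries. CCT8 stands far above the other subunits in footprints at 10 µM, at 350 and 382 CPM per kb. In RNA at 10 µM its mean of 146 CPM per kb is close to the 142 of CCT5, and TCP1 is higher at 10 µM in both panels.

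Of the chaperones of the mitochondrial matrix, the chaperonin HSP60 and its lid HSP10 rose in footprints, and the disaggregase HSP78 fell. HSP60 (YLR259C; chromosome XII, 663284 to 665002) had 1639 and 1837 footprint CPM at 10 µM, against 1002 and 1106 at 0 µM, a log2 change of 0.72 (SE 0.10, adjusted p = 7.0e-04 in edgeR). HSP60 RNA was 779 and 879 CPM at 10 µM, against 666 and 670 at 0 µM, higher without overlap, and just missed the threshold (log2 difference 0.31, SE 0.11, adjusted p = 0.062 in edgeR). It passed with size factors or library totals as the scaling and in some further settings (adjusted p from 0.021 to 0.31 over all settings). HSP10 had 315 and 346 footprint CPM at 10 µM, against 239 and 278 at 0 µM, a log2 change of 0.35 (SE 0.12, adjusted p = 0.041 in edgeR). HSP10 was higher without overlap, yet its call was lost with library totals, with DESeq2 and without footprint library 1 of 0 µM or either footprint library of 10 µM (largest adjusted p 0.26). Per length, HSP10 had 1.03 and 1.01 footprints for each on HSP60 at 10 µM, against 1.28 and 1.35 at 0 µM, so the ring and its lid were closest to equal at 10 µM. HSP10 RNA, 329 and 281 CPM at 10 µM and 298 and 281 at 0 µM, overlapped between the groups (log2 difference 0.07, SE 0.12).

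HSP78, the mitochondrial relative of Hsp104, had 252 and 247 footprint CPM at 10 µM, against 335 and 336 at 0 µM, a log2 change of -0.43 (SE 0.10, adjusted p = 0.0081 in edgeR). Its RNA difference of -0.24 was not called (SE 0.11, adjusted p = 0.14 in edgeR), and the footprint call was lost without footprint library 2 of either concentration (largest adjusted p 0.061). SSC1, the mitochondrial Hsp70 that pulls proteins in through the import channel, had 2605 and 2460 footprint CPM at 10 µM, against 2065 and 2187 at 0 µM, and 1041 and 1031 RNA CPM at 10 µM, against 1246 and 1138 at 0 µM. The footprints were higher and the RNA lower without overlap, and neither was called (log2 difference 0.25, SE 0.09, adjusted p = 0.051 in edgeR in footprints, and -0.20, SE 0.09, adjusted p = 0.15 in edgeR in RNA). The SSC1 footprint difference passed the threshold under 6 of the other settings, limma voom and each assay fitted alone among them (adjusted p from 0.017 to 0.26 over all settings). MDJ1, the J protein partner of Ssc1, differed by 0.28 in footprints (SE 0.11, adjusted p = 0.071 in edgeR) and -0.04 in RNA (SE 0.12).

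HSF1 itself was low and did not pass the test in either assay. It had 55.5 and 58.7 footprint CPM at 10 µM, against 51.8 and 51.0 at 0 µM, and 63.7 and 55.4 RNA CPM at 10 µM, against 65.3 and 60.1 at 0 µM. Footprints were slightly higher without overlap (log2 difference 0.15, SE 0.12, adjusted p = 0.32 in edgeR), and RNA overlapped (log2 difference -0.07, SE 0.13, adjusted p = 0.74 in edgeR). HSF1 had 22.8 footprint CPM per kb at 10 µM and 20.5 at 0 µM, below all others of the 41 genes but SSA3 and HSP30, where HSC82 had 1770 at 10 µM and 1780 at 0 µM. The activity of the Hsf1 protein was not measured.

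No chaperone gene was called for a change in translational efficiency, the footprint change minus the RNA change. Of all tested genes 1.79% were called, 0.893% in each direction. At an unadjusted p below 0.05 edgeR gave 6 of the 41 genes, and at an adjusted p below 0.05 DESeq2 called 2, EGD1 and CCT8, and limma voom called 0. The values nevertheless lay mostly on the positive side: 36 of the 41 genes were above zero, where 55.4% of all tested genes were, and 34 were above the median of all tested genes. The median over the 41 genes was 0.22, with a range of -0.19 to 0.83, against 0.05 over all tested genes. The number above the all-gene median was 34 under each other scaling, with no filter, with DESeq2 and with limma voom, and 31 to 35 as single libraries were left out. How far this shift bears on chaperones as a group was not tested.

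EGD1, CCT8 and ZUO1 had the largest efficiency differences. EGD1 stood at 0.83 (SE 0.20, adjusted p = 0.066 in edgeR), with 1.38 footprint per RNA CPM at 10 µM, against 0.776 at 0 µM. CCT8 stood at 0.78 (SE 0.19, adjusted p = 0.074 in edgeR), with a ratio of 2.50 at 10 µM, against 1.46 at 0 µM. ZUO1 stood at 0.60 (SE 0.15, adjusted p = 0.087 in edgeR), with a ratio of 2.46 at 10 µM, against 1.63 at 0 µM. In rank among all tested genes, the EGD1 ratio stood at percentile 68.5 at 10 µM, against 34.8 at 0 µM, and the CCT8 ratio at percentile 97.3 at 10 µM, against 78.2 at 0 µM. Each of these 3 genes passed the threshold in some other settings, among them EGD1 with DESeq2 and without RNA library 2 of 0 µM, CCT8 with DESeq2 and without RNA library 1 of 0 µM, and ZUO1 without RNA library 2 of 0 µM. Over all settings the adjusted p ran from 0.012 to 0.23 for EGD1, from 0.018 to 0.21 for CCT8 and from 0.037 to 0.24 for ZUO1. The next in size were HSP12 (0.53, SE 0.27), SSA4 (0.51, SE 0.20), SSC1 (0.45, SE 0.13) and HSP60 (0.41, SE 0.15), none called. The 5 genes below zero were BTN2, HSP78, HSP42, CCT3 and HSP30, all between -0.19 and -0.14.

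**Figure D5:**
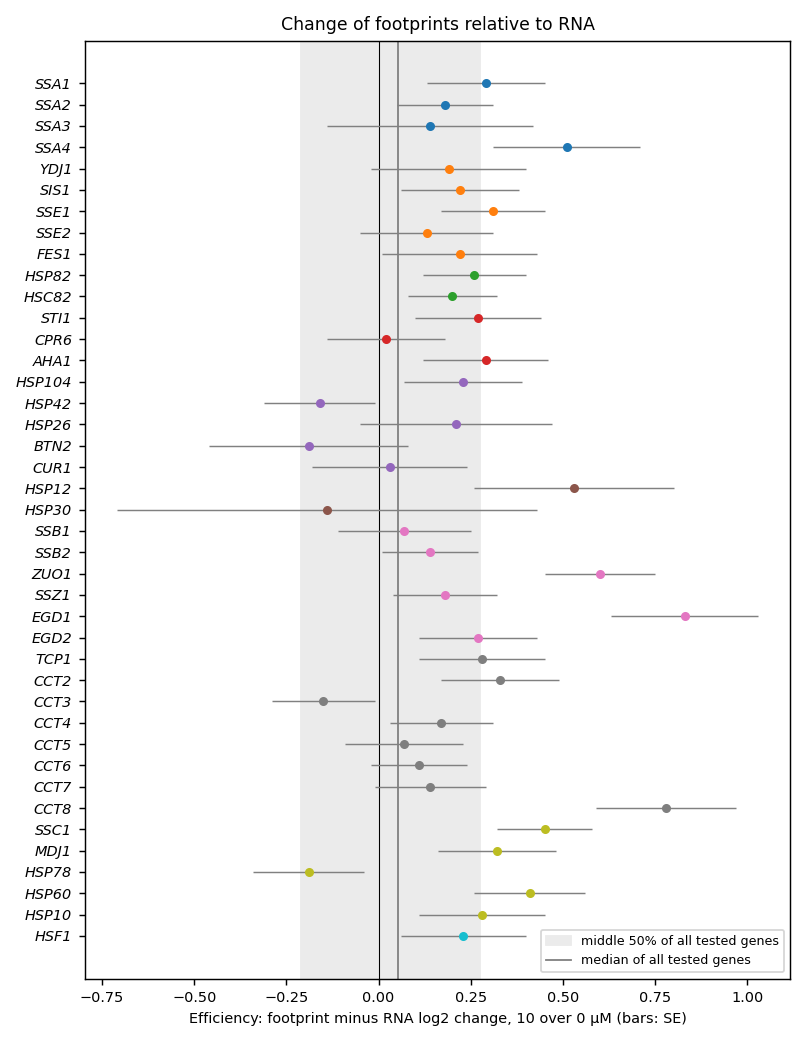
Efficiency difference of each of the 41 genes, the footprint log2 change minus the RNA log2 change at 10 over 0 µM, with bars of 1 SE and colours by role; the shaded band is the middle 50% of all tested genes, from -0.21 to 0.28, and the grey line their median of 0.05. EGD1, CCT8 and ZUO1 lie farthest right, and 5 genes lie left of zero.

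Most of the 41 genes carried many footprints for their RNA in both groups: the ratio of footprint to RNA CPM was above the median of all tested genes for 37 of them at 10 µM and for 35 at 0 µM. STI1 had the highest ratio at 10 µM, with 3.04 at 10 µM against 2.52 at 0 µM, and HSP26 followed with 2.93 at 10 µM against 2.53 at 0 µM. HSP42 had the highest ratio at 0 µM, with 2.48 at 10 µM against 2.77 at 0 µM. The lowest were SSA3 and SSA4, followed by HSP30, with 0.537 at 10 µM and 0.590 at 0 µM. HSF1, with 0.958 at 10 µM and 0.819 at 0 µM, came next at 10 µM, and EGD1, at 0.776, came next at 0 µM. Footprint density per kb was highest for HSC82 at 10 µM, 1770 CPM, and for HSP12 at 0 µM, 2120 CPM.

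A further 38 chaperone and stress genes outside the 41, in 5 lists, gave the wider setting. In footprints 10 were higher and 4 lower, with a median log2 change of 0.24, and in RNA 6 were higher and 3 lower, with a median of 0.11. The called shares, 36.8% in footprints and 23.7% in RNA, were near the 38.5% and 21.9% of all tested genes. The Hsp90 cochaperone list had 2 of 9 genes higher in footprints. CDC37, which brings kinases to Hsp90, rose by 0.66 in footprints (SE 0.10, adjusted p = 7.7e-04 in edgeR) and 0.59 in RNA (SE 0.11, adjusted p = 0.0038 in edgeR). SBA1, the p23 cochaperone, rose by 0.59 in footprints (SE 0.12, adjusted p = 0.0036 in edgeR) and 0.52 in RNA (adjusted p = 0.015 in edgeR), the RNA call being lost without RNA library 2 of either concentration. In RNA CNS1 (0.70) was also higher and HCH1 (-0.43) lower. The CNS1 call was lost without RNA library 1 of 0 µM or library 2 of 10 µM, and the HCH1 call with DESeq2 and without any of the 4 RNA libraries (largest adjusted p 0.094 for CNS1 and 0.13 for HCH1).

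Among 7 further mitochondrial chaperone genes 3 were higher in footprints and 2 in RNA. MGE1, the exchange factor of Ssc1, had 200 and 233 footprint CPM at 10 µM, against 117 and 114 at 0 µM, a log2 change of 0.91 (SE 0.11, adjusted p = 2.6e-04 in edgeR), and rose by 0.88 in RNA (SE 0.12, adjusted p = 0.0012 in edgeR). MGE1 kept both calls in every alternative run. Its partner SSC1 was called in neither assay, though its footprints only just missed the threshold (adjusted p = 0.051 in edgeR), and a difference between MGE1 and SSC1 was not tested. MCX1 (0.57) and JAC1 (0.67), the J protein of iron-sulfur cluster assembly, were higher in footprints and ECM10 (0.54), a second matrix Hsp70, in RNA. ECM10 had few footprints, 6.27 and 6.85 CPM at 10 µM and 3.63 and 5.41 at 0 µM, beside RNA of 156 and 213 CPM at 10 µM and 126 and 127 at 0 µM. Its footprint difference of 0.50 was not called (SE 0.30, adjusted p = 0.21 in edgeR). MCX1 lost its call without footprint library 2 of 10 µM, JAC1 with DESeq2 and without either footprint library of 0 µM or library 1 of 10 µM, and ECM10 without either footprint library of 10 µM, either RNA library of 0 µM or RNA library 2 of 10 µM (largest adjusted p 0.059, 0.20 and 0.28). Of 10 other J proteins and Hsp70 cochaperones, SGT2 (0.55), CAJ1 (0.50) and DJP1 (0.37) were higher and SNL1 (-0.81) lower in footprints, and SGT2 (0.47) was higher in RNA. SGT2 kept its footprint call in every alternative and lost the RNA call without RNA library 2 of 10 µM. CAJ1 lost its call without footprint library 1 of 0 µM, SNL1 without footprint library 2 of either concentration, and DJP1 with DESeq2 and without any of the 4 footprint libraries (largest adjusted p 0.058, 0.080 and 0.16).

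Prefoldin, which hands actin and tubulin to CCT, and the CCT helpers showed little: of 8 genes PFD1 (0.53) was higher and PLP2 (-0.34) lower in footprints. PFD1 lost its call with library totals, with DESeq2 and without either footprint library of 0 µM or library 2 of 10 µM, and PLP2 in each of the 8 single-library omissions and 6 other settings (largest adjusted p 0.31 and 0.30). Of 4 other stress genes, HSP31, which detoxifies methylglyoxal, had 162 and 175 footprint CPM at 10 µM, against 656 and 614 at 0 µM, a log2 change of -1.91 (SE 0.11, adjusted p = 5.3e-06 in edgeR), and fell by 1.97 on the log2 scale in RNA (SE 0.11, adjusted p = 2.7e-05 in edgeR). This was larger than the change of any of the 41 genes in either assay. UBI4, the stress-induced polyubiquitin gene, rose by 0.66 in footprints (SE 0.10, adjusted p = 8.6e-04 in edgeR). Its RNA difference of 0.21 was not called (SE 0.10, adjusted p = 0.18 in edgeR). MSN4, a transcription factor of the general stress response, fell by 0.51 on the log2 scale in footprints (adjusted p = 0.010 in edgeR) and by 0.72 in RNA (adjusted p = 0.0056 in edgeR). The MSN4 footprint call was lost without footprint library 1 of either concentration and the RNA call without RNA library 2 of 10 µM (largest adjusted p 0.072 and 0.051).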

How the data were processed

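Samples were grouped by assay and spermidine from their titles. The authors deposited a table of whole-number counts of reads per gene in 8 libraries. Per the submitters' processing notes, the tools were cutadapt, Bowtie 1.1.2, Bowtie 1.2.2 and edgeR, and the builds were sacCer3 and R64; their roles are not stated. Which stretch of a gene was counted, whether strand was used and how reads with several matches were handled is not given in the sources used here. In RefSeq's R64 gene table no other gene overlapped any of the 41, and other annotations were not searched. Lines with no gene name, 3 in all, were dropped. RefSeq's R64 gene table matched 5543 IDs.

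The analysis used edgeR 4.0.16 in R 4.3.3. Low genes were removed by filterByExpr (minimum count 10, minimum total 15), and composition factors (TMM) came from all 8 libraries together. A quasi-likelihood model with 4 group coefficients had 4 residual degrees of freedom. Contrasts were footprints, RNA and their difference, each 10 over 0 µM, with Benjamini-Hochberg adjustment over the 5488 genes tested and calls below 0.05. Standard errors were computed as the log2 change divided by the square root of F. CPM was computed here from the counts and the composition-adjusted totals, and densities divide it by coding length. Replicate pairs were distinct libraries (chi-square per degree of freedom 5.73 to 10.5). The labels give no batch. The fit was tested on simulated data. Alternatives were other scalings and filters, DESeq2 1.42.0, limma voom (limma 3.58.1), a replicate block, omission of each library, summed near-identical pairs and each assay alone. The 41 genes were listed by name, but they and the other lists were chosen with earlier results of these data known. Outside the 41, up to 4 called genes per list are named, those with the smallest p. Sequences are not used here.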

Additional observations from a re-analysis of the deposited data

How the results depend on the processing

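There were 32 called values of the 41 genes, 19 in footprints and 13 in RNA. Of these, 18 kept their call in every alternative that fitted the gene singly. The fit with summed pairs did not hold SSA1, SSA2, SSB1, SSB2, HSP82 or HSC82 as single genes, so their calls could not be lost there. As sums, SSB1 with SSB2 was called in both assays, SSA1 with SSA2 in RNA alone and HSP82 with HSC82 in neither. Over 2149 values of single genes under alternatives, 45 lost a call, 49 gained a call and none of the called values changed sign, while 62 uncalled values did. The number of the 41 genes called higher in RNA, 4, was 2 with each assay fitted alone. It was also 2 with the near-identical pairs summed, because SSA1 and HSP82 were then merged with their copies, while SSE2 and TCP1 kept their calls. The number called higher in efficiency, 0, was 2 with DESeq2 and 3 with the replicate block, under which efficiency calls over all genes numbered 295 in place of 98. With that block the 41 genes had 16 higher and 10 lower in footprints and 5 higher and 12 lower in RNA, and EGD1, CCT8 and ZUO1 were called in efficiency. Without a call as reported but called in some setting were 17 values: footprints of YDJ1, CPR6, AHA1, HSP12, EGD2, SSC1 and MDJ1, RNA of YDJ1, FES1, HSP104, HSP26, BTN2, CCT2 and HSP60, and efficiency of those 3 genes. The labels do not say that replicate numbers pair libraries; deviations of same-numbered libraries correlated with r of 0.24 in footprints and 0.176 in RNA, over a single pair each. As single libraries were left out, the genes lower in footprints numbered 4 to 8, those higher in RNA 1 to 5 and those higher in efficiency 0 to 2, and calls over all genes ran from 1392 to 2218 in footprints, 669 to 1080 in RNA and 20 to 151 in efficiency. The number higher in footprints also fell without footprint library 1 of 0 µM or either footprint library of 10 µM. Where an arm was left with 1 library, it was assumed to vary like the other groups. Changes under the scalings are relative to the typical gene. The smallest count among the 41 genes was 11 reads, and RNA libraries were shallower than footprint libraries. Beyond the merging of the pairs, why calls moved was not tested.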
